A study of Mus musculus with 12 samples.

Results

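The families described are the amino acid transporters of the solute carrier (SLC) nomenclature: Slc1a, Slc3a, Slc6a, Slc7a, Slc36a, Slc38a and Slc43a. Members were chosen by gene symbol alone, as every measured gene whose symbol is one of these family names followed by a number, with Slc6a20a and Slc6a20b kept as members. This gave 60 genes of the 18193 with a named probe set, in 7 families: 20 in Slc6a, 15 in Slc7a, 9 in Slc38a, 7 in Slc1a, 4 in Slc36a, 3 in Slc43a and 2 in Slc3a. They were covered by 121 probe sets, and the probe set that was brightest on average over the arrays (mean log2) stood for each gene. Antisense symbols (Slc36a1os, Slc6a19os and Slc7a6os) were left out, as was 1 probe set shared by Slc1a2 and another gene.

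RNA came from F9 cells, a mouse teratocarcinoma line that is studied for its differentiation towards primitive endoderm under retinoic acid (RA). The groups were F9 wild type in ethanol vehicle, F9 wild type in 1 µM RA, and F9 cells labelled as knockout for the RA receptor gamma gene (Rarg) in vehicle and in RA, all at 24 h and with 3 Affymetrix arrays in each of the 4 groups. Every group was grown in the same serum-containing medium. How the knockout line was made, whether it is 1 clone, and whether replicates are separate cultures are not given in the sources used here, so a p-value reflects array-to-array spread alone, which may be technical.

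Amino acid transporters move amino acids across the plasma membrane or out of lysosomes and set the supply for protein synthesis, nucleotide and glutathione synthesis and growth signalling. Slc1a members carry glutamate or small neutral amino acids with sodium. Slc3a members are heavy chains that bring Slc7a light chains to the cell surface, where most of these exchange one amino acid for another, while a subgroup of Slc7a carries cationic amino acids without a heavy chain. Slc6a members include carriers of taurine, creatine, glycine and transmitters, Slc36a members move amino acids with protons, Slc38a members move glutamine and other neutral amino acids, and Slc43a members move large neutral amino acids or nucleobases. Proliferating stem cells are known for high uptake of glutamine and of essential amino acids.

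Values are MAS5 signals as the authors deposited them, and a change is the difference in mean log2(signal + 16), with its standard error (SE) from 1 limma model of the 4 groups. A gene is said to have risen or fallen where the Benjamini-Hochberg adjusted p over 45037 probe sets was under 0.05. The arrays were hybridized in 3 runs of 4, each with 1 array of every group, and replicates 1, 2 and 3 of a group are its arrays in runs 1, 2 and 3. The chip lot was not balanced within runs. Lot 2 held knockout vehicle replicates 1 and 2, knockout RA replicate 1 and wild type RA replicate 3, and lot 1 the other arrays. Lot and genotype are thus partly confounded, mostly in vehicle, a block for the run does not remove this, and the part of the lot was not tested. A second fit with the run as a block has the same estimates and other errors, and its calls of members and its counts for the gene lists are given where they differ. A signal of 81.6, from 86 probe sets for smell, pheromone and taste receptors, served as the background level, and a group mean under it gives only a bound.

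The array median signal was 71.3 to 94.9 on 11 arrays and 143.2 on the vehicle replicate 3 labelled knockout, where the receptor level was also raised (232.2, against 61.5 to 99.4), so dim signals are higher on this array. The 3' to 5' signal ratio of Gapdh was 0.771 to 0.865 over the arrays. Rarg itself was not lower in the cells labelled knockout (a change of 0.16, adjusted p = 0.733, in vehicle and 0.12, adjusted p = 0.885, in RA). Where its probes lie relative to the disruption is not known here, so the signal does not check the label, and directions below are those between the labels. All 8 F9 stem cell markers (among them Pou5f1, Nanog and Sox2) lay above background in every group, and all 5 measured blood markers below it.

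Of the 60 genes, 34 had a mean above the background level (56.67%, against 59.8% of all genes). In Slc1a these were Slc1a1, Slc1a3, Slc1a4 and Slc1a5, and in Slc3a Slc3a2. In Slc6a they were Slc6a2, Slc6a6, Slc6a8, Slc6a9, Slc6a15, Slc6a17 and Slc6a18, in Slc7a the genes Slc7a1 to Slc7a7 with Slc7a9 and Slc7a11, and in Slc36a Slc36a1, Slc36a3 and Slc36a4. In Slc38a they were Slc38a1, Slc38a2, Slc38a4, Slc38a6, Slc38a7, Slc38a9 and Slc38a10, and in Slc43a all 3 members. Below it lay the glutamate transporters Slc1a2, Slc1a6 and Slc1a7, the heavy chain Slc3a1, 13 Slc6a genes (Slc6a3, Slc6a4, Slc6a5, Slc6a7, Slc6a11, Slc6a12, Slc6a13, Slc6a14, Slc6a16, Slc6a19, Slc6a20a, Slc6a20b and Slc6a21), the Slc7a genes Slc7a8, Slc7a10, Slc7a12, Slc7a13, Slc7a14 and Slc7a15, and Slc36a2, Slc38a3 and Slc38a5. Slc3a1, the heavy chain of the kidney and gut cystine carrier, had group means of 67.4, 36.3, 60.3 and 54.8 in wild type vehicle, wild type RA, knockout vehicle and knockout RA. Of these 26 dim genes 25 were under the level in all 4 groups and 0 passed a test without or with the run as a block, so nothing is said of their direction.

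The comparison of cells labelled knockout with wild type asks how the cells differ with and without RA. In vehicle 9 members passed by limma (all genes 6.42%), 3 of them higher (all genes 2.41%) and 6 lower (all genes 4.01%). In RA 9 passed as well (all genes 7.55%), 2 higher (3.26%) and 7 lower (4.28%). Blocking on the run, 14 members passed in vehicle (all genes 13.5%), with 3 higher (5.78%) and 11 lower (7.77%). In RA 12 passed with this block (all genes 14.5%), 3 higher (6.76%) and 9 lower (7.78%). The signals of 22 members did not overlap between the lines in vehicle (24.1% of all genes) and those of 21 in RA (28.3% of all genes). With arrays centred on their medians the split was 2 higher and 5 lower in vehicle and 2 higher and 3 lower in RA. Without the vehicle replicate 3 labelled knockout 7 passed in vehicle (12 with the run as a block) and 10 in RA. The members that passed in vehicle had 11 other probe sets above background, of which 10 changed in the same direction and 5 passed. In RA all 13 such probe sets changed in the same direction and 8 passed. Those of Slc1a4, Slc6a6 and Slc7a1 are in these counts and are not given singly below.

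Markers of endoderm differed between the same groups, while of 7 neural markers only 1 passed in each treatment without the block. The summed signal of 12 endoderm markers was 58948 to 62464 in wild type vehicle and 49930 to 70534 in wild type RA, against 4992 to 19670 and 5610 to 21524 in the cells labelled knockout. Of the 12 markers 8 were lower in each treatment (10 with the run as a block, median change -2.36 in vehicle and -2.03 in RA), among them Gata4 (-2.73 in vehicle, adjusted p = 0.000364), Sox17 (-3.58, adjusted p = 0.000397) and Dab2 (-3.82, adjusted p = 0.00562), while Afp and Ttr had means under or near the background level in both vehicle groups. The summed signal of 7 neural markers was 1475 to 1766 in wild type and 2123 to 2847 in the cells labelled knockout in vehicle, and 1265 to 1425 and 2374 to 2585 in RA. Of the 7 markers, 3 of them above background, 1 was higher in each treatment (2 in vehicle with the block). These were Pax6 in vehicle (0.99, adjusted p = 0.0174) and Tubb3 in RA (1.22, adjusted p = 0.000268), and Neurod1, Neurog2 and Gfap had means under or near the background level. Of 6 trophoblast markers 0 passed in vehicle and 1 was higher in RA (blocked, 1 lower in vehicle and 1 higher and 1 lower in RA). Of 8 fibroblast and muscle markers 0 passed (blocked, 1 lower in RA). The stem cell marker sum was 115479 to 117551 and 130920 to 155532 in vehicle and 80784 to 93001 and 126498 to 137254 in RA, with 4 of 8 markers higher in vehicle (5 with the block) and 6 in RA. In RNA of whole cultures, fewer cells of a type and less RNA per cell cannot be told apart. The part of these markers in the transporter results below was not tested.

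**Figure D1:**
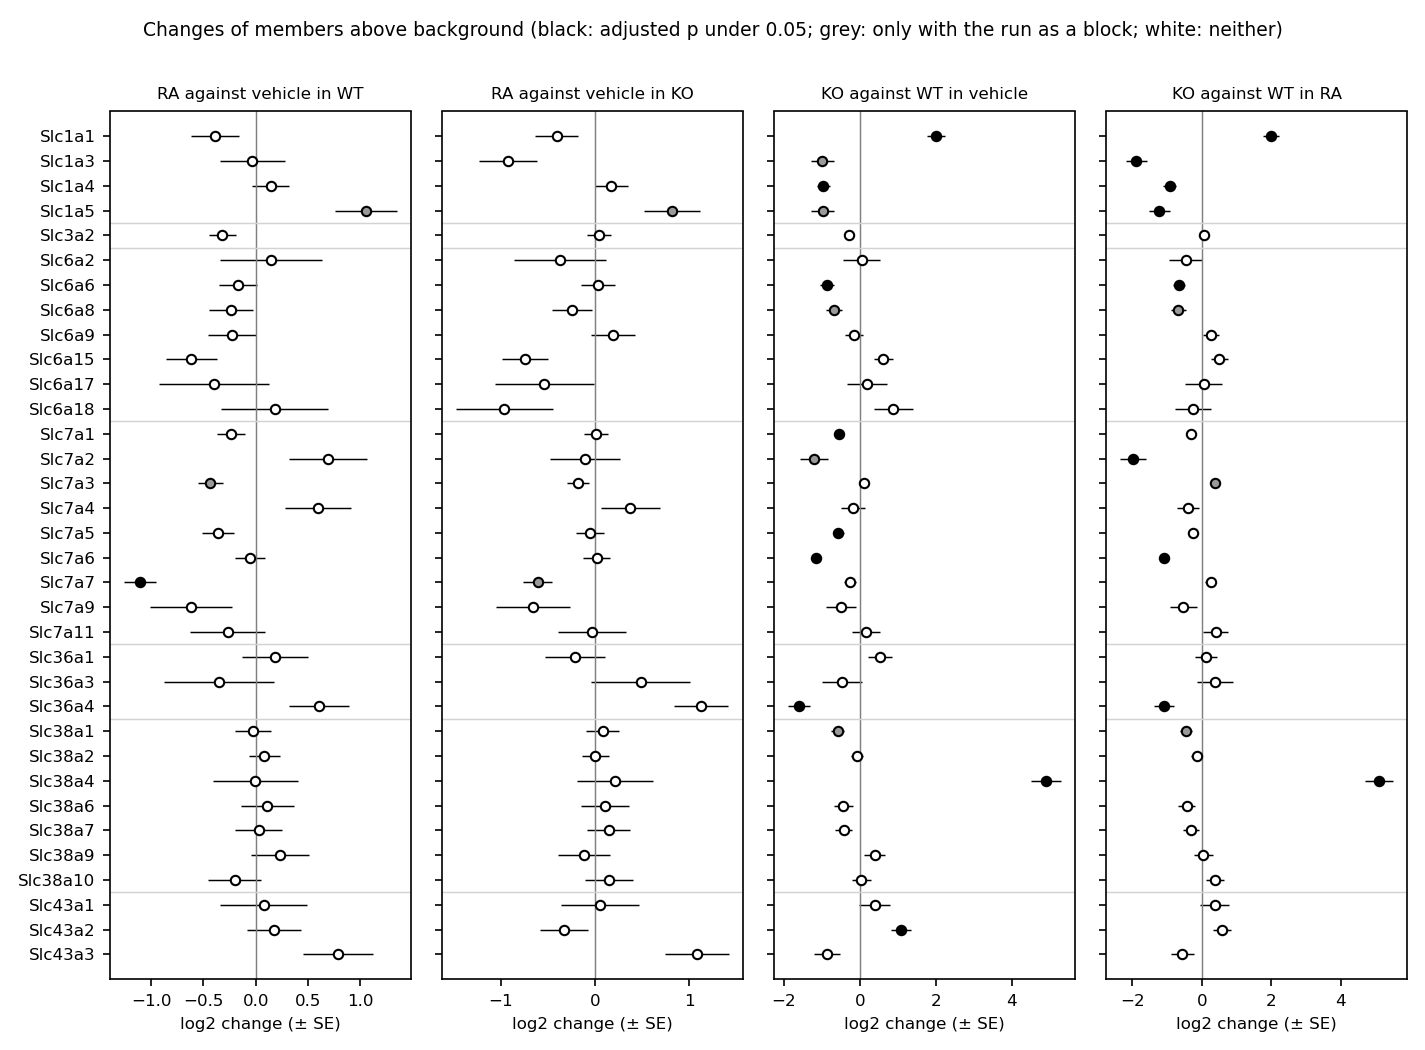
Log2 change with its standard error for the 34 members above background, grouped by family, in the 4 comparisons (WT, wild type, and KO, labelled knockout; horizontal axes differ in scale). Black points passed at an adjusted p under 0.05, grey points passed only with the run as a block. Slc38a4 (4.91 and 5.12) and Slc1a1 (2.01 and 1.99) lie to the right in both genotype panels.

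Slc38a4, a sodium-coupled carrier of neutral amino acids (system A) and in mouse an imprinted gene expressed from the paternal allele, separated the lines. Its signal was 48.4, 65.4 and 31.2 in wild type vehicle and 90.5, 8.47 and 78.7 in wild type RA, against 1865, 1839 and 1909 in knockout vehicle and 2047, 2077 and 2380 in knockout RA. Every array labelled knockout stood far above every wild-type array, and both wild-type means (48.4 and 59.2) were under the background level. The gene was therefore at least 19.3-fold higher in vehicle (change 4.91, SE 0.403, adjusted p = 1.76e-06) and at least 21.7-fold higher in RA (5.12, SE 0.403, adjusted p = 1.07e-06). By run, the vehicle arrays differed by 4.87, 4.51 and 5.35 and the RA arrays by 4.28, 6.42 and 4.66. A second probe set gave 4.58 and 4.39 (adjusted p = 1.94e-07 and 2.41e-07). RA did not change Slc38a4 detectably in the cells labelled knockout (0.21). In wild type the value was 0.00, but with both means under the background level it does not show whether RA acted there.

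Slc38a4 lies on mouse chromosome 15 beside Slc38a2 and Slc38a1, with 0 protein-coding genes between neighbours. Slc38a2, the system A carrier induced by amino acid starvation, had 9790, 8823 and 8323 in wild type vehicle and 9678, 8758 and 7314 in knockout vehicle, and the groups overlapped (-0.07, SE 0.146, adjusted p = 0.858). Slc38a1, a glutamine carrier, had 4629, 4200 and 3886 against 3523, 3047 and 2125, so the groups did not overlap. Its change was -0.57 in vehicle (adjusted p = 0.076, blocked 0.0024) and -0.47 in RA (0.169 and 0.012). The other probe set of Slc38a1 gave -0.22 and 0.02, neither of which passed. The large rise of Slc38a4 was thus not seen in these neighbours.

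The promoter of Slc38a4 is printed because the gene was near background in one line and bright in the other, beside that of Slc1a1, the other gene that rose in both treatments. Windows are RefSeq's, GRCm38.p6, 250 bases before to 50 bases after the annotated start, written 5′ to 3′ along the gene, and capitals mark CpG dinucleotides, the sites of DNA methylation. The Slc38a4 window is that of the most upstream of 3 annotated starts, chr15:97055907-97056206 on the minus strand, and that of Slc1a1 chr19:28834885-28835184 on the plus strand.
Slc38a4: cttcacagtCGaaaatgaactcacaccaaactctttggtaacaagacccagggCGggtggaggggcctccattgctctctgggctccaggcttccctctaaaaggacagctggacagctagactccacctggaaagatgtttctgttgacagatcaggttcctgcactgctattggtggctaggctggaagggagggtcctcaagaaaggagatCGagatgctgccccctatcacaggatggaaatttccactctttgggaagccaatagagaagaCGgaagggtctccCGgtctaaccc
Slc1a1: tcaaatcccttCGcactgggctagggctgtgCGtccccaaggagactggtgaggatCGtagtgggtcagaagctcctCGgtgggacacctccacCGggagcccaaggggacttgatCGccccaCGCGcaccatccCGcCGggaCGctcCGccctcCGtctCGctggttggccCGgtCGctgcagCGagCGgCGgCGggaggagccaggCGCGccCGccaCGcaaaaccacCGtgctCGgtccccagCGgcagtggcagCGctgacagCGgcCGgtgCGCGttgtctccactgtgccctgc
The first holds 5 CpG, as does each of the other 2 windows of Slc38a4, and the second 32, against a median of 7 over 32851 windows of all genes (percentiles 38.04 and 90.48). Methylation was not measured.

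Among the glutamate carriers, Slc1a1 rose and Slc1a3 fell. Slc1a1 (EAAT3), which takes up glutamate, aspartate and cysteine, had 183, 171 and 203 in wild type vehicle and 145, 144 and 124 in wild type RA, against 983, 691 and 733 and 502, 560 and 745 in the cells labelled knockout. The lowest array labelled knockout was above the highest wild-type array. The change was 2.01 (SE 0.231, adjusted p = 5.94e-05) in vehicle and 1.99 (SE 0.231, adjusted p = 4.66e-05) in RA, and 2 further probe sets gave 2.08 and 2.39 in vehicle and 1.42 and 1.74 in RA, all past the threshold.

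Slc1a3 (GLAST), the glutamate carrier known from glia, had 576, 496 and 304 in wild type vehicle and 441, 508 and 364 in wild type RA. In the cells labelled knockout it had 193, 170 and 303 in vehicle and 135, 74.9 and 116 in RA. In RA the groups stood clear of each other, and Slc1a3 fell by 1.88 on the log2 scale (SE 0.307, adjusted p = 0.00106). In vehicle the replicate 3 arrays were nearly equal, and the change of -0.99 did not pass (adjusted p = 0.0867) but did with the run as a block (0.0276), within runs -1.50, -1.46 and -0.01. Without the vehicle replicate 3 labelled knockout it was -1.22 (adjusted p = 0.0454). Of 5 further probe sets 3 passed downwards in vehicle (-1.19, -2.54 and -1.63) and the same 3 in RA.

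Of the small neutral amino acid exchangers of the family, Slc1a4 was lower in both treatments. Slc1a5 passed downwards in RA, and in vehicle only with the run as a block. Slc1a4 (ASCT1), a carrier of alanine, serine and cysteine, had 1082, 800 and 1121 in wild type vehicle against 540, 499 and 471. In RA it had 1006, 1176 and 1116 against 595, 513 and 601. Neither pair of groups overlapped, and the gene fell by 0.96 (SE 0.176, adjusted p = 0.00382) and by 0.93 (SE 0.176, adjusted p = 0.0037), in RA not past the threshold with arrays centred on their medians (0.143).

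Slc1a5 (ASCT2), the main glutamine exchanger of many proliferating cells, had 1559, 1744 and 913 in wild type vehicle and 3764, 3137 and 1934 in wild type RA. In the cells labelled knockout it had 654, 854 and 566 in vehicle and 1588, 1460 and 760 in RA. Replicate 3 was the lowest array in each of the 4 groups, and within each run the array labelled knockout was below the wild-type one. The change was -0.97 in vehicle (adjusted p = 0.0804, blocked 8.58e-05) and -1.22 in RA (SE 0.298, adjusted p = 0.0223, blocked 3.85e-06). The call in RA was lost without wild type RA replicate 1 or 2 or knockout RA replicate 3, with adjusted p values up to 0.141 and changes of -1.02, -1.15 and -0.89. Its other probe set did not pass (0.30 and -0.67).

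**Figure D2:**
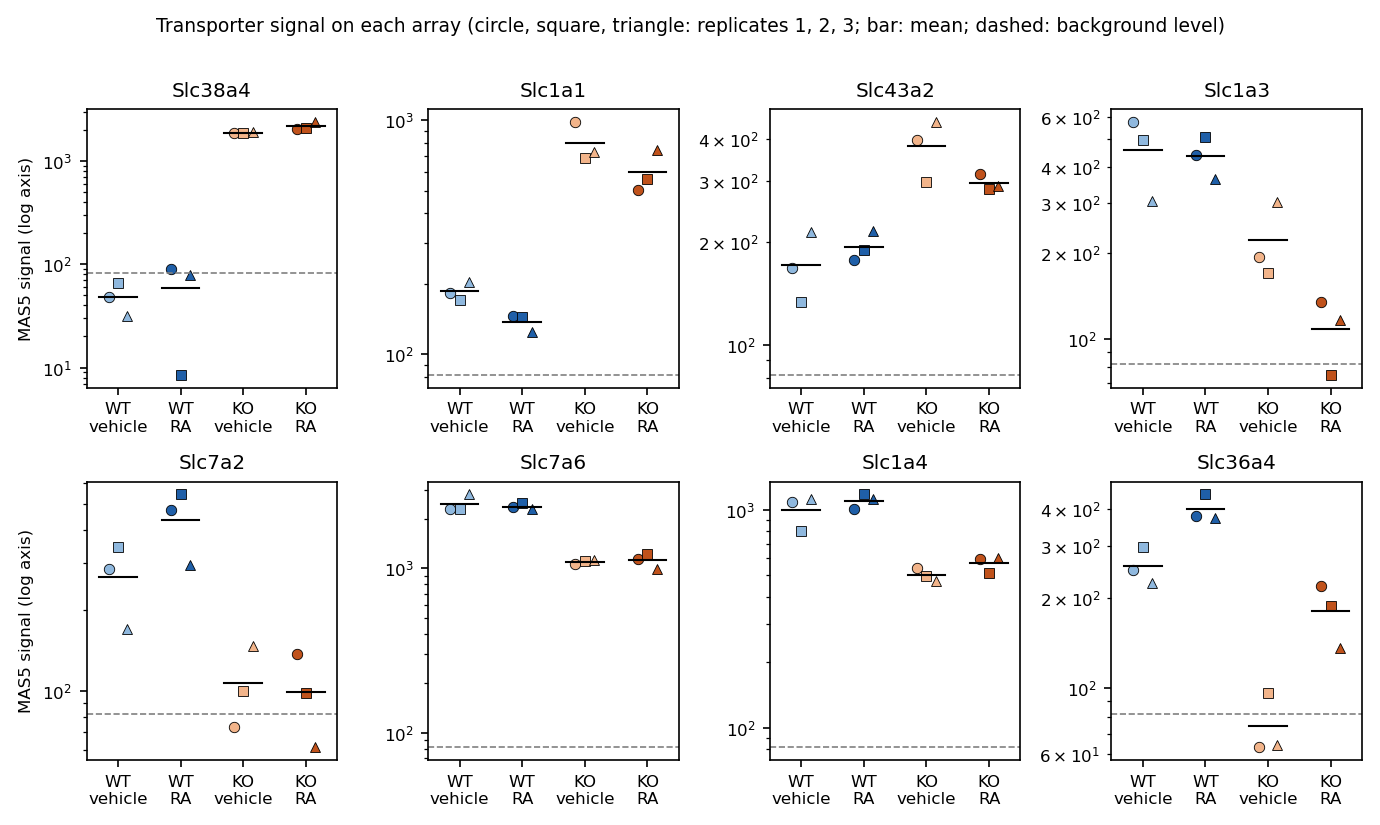
MAS5 signal on each array (log axis) for 8 members in the 4 groups, with circles, squares and triangles for replicates 1, 2 and 3, bars for group means and a dashed line for the background level of 81.6. Slc38a4 lies near the line in wild type and between 1839 and 2380 in the cells labelled knockout, while Slc7a6 and Slc1a4 are lower there.

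The shared heavy chain differed little. Slc3a2 (4F2hc, CD98), which carries Slc7a5, Slc7a6, Slc7a7 and Slc7a11 to the surface, had 17281, 16720 and 19248 in wild type vehicle and 14505, 16227 and 12952 in knockout vehicle, without overlap. The change of -0.29 (SE 0.13) did not pass (adjusted p = 0.276), nor did 0.07 in RA (0.904).

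Of the light chains Slc7a5, Slc7a6, Slc7a7 and Slc7a11, the first 2 were lower in vehicle and Slc7a6 in RA, and differences between chains were not tested. Slc7a6 (y+LAT2), an exchanger of cationic for neutral amino acids, had 2307, 2292 and 2823 in wild type vehicle against 1069, 1106 and 1127 in knockout vehicle, and 2351, 2491 and 2294 against 1139, 1232 and 987 in RA. The 12 arrays split cleanly by line, and the gene fell by 1.15 (SE 0.144, adjusted p = 0.000138) and by 1.08 (SE 0.144, adjusted p = 0.000172). A second probe set gave -1.34 and -1.15, both past the threshold.

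Slc7a5 (LAT1), the main carrier of leucine and other large neutral amino acids, had 11476, 9955 and 12629 in wild type vehicle against 8368, 8867 and 6037. The groups did not overlap, and the change was -0.56 (SE 0.152, adjusted p = 0.045), but the within-run changes of -0.45, -0.17 and -1.06 were uneven. The call was lost in 9 of 12 fits that left out 1 array, all but those without wild type vehicle replicate 2, knockout vehicle replicate 2 or knockout RA replicate 3, with adjusted p values up to 0.161. In RA the change was -0.25 (adjusted p = 0.505). Slc7a7 (y+LAT1), close in transport function to Slc7a6, did not pass on its brighter probe set (-0.25 and 0.25, adjusted p = 0.458 and 0.516), while its other probe set was lower in vehicle (-0.57, adjusted p = 0.031) and had 0.20 in RA (0.628). Slc7a11 (xCT), which exchanges cystine for glutamate, had wide groups (286, 215 and 113 against 213, 184 and 264 in vehicle) and changes of 0.17 and 0.41 that did not pass.

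Of the cationic amino acid carriers Slc7a1, Slc7a2 and Slc7a3, which take up arginine and lysine without a heavy chain, 1 was lower in each treatment. Slc7a1 (CAT1) had 11422, 11193 and 11695 in wild type vehicle against 8498, 8533 and 6553 in knockout vehicle, with no overlap. It fell by 0.55 (SE 0.131, adjusted p = 0.022), a call lost without wild type vehicle replicate 1 or 2 or knockout vehicle replicate 3 (adjusted p up to 0.0746, changes of -0.55, -0.57 and -0.42). In RA the change was -0.30 (adjusted p = 0.267).

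Slc7a2 (CAT2), an arginine carrier known to be inducible, had 285, 345 and 170 in wild type vehicle and 474, 544 and 295 in wild type RA, against 73.4, 99.6 and 147 and 137, 98.2 and 61.4 in the cells labelled knockout. In RA it fell by 1.99 (SE 0.371, adjusted p = 0.00324, within runs -1.67, -2.29 and -2.01). In vehicle the change was -1.19 (adjusted p = 0.0857, blocked 0.0242), with -1.75, -1.64 and -0.19 within the runs. Its 3 other probe sets were below background in the compared groups.

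Slc7a3 (CAT3), a cationic carrier known from brain, had narrow groups: 10067, 9888 and 9881 in wild type RA against 12456, 12911 and 13542 in knockout RA. The difference of 0.38 (SE 0.116) passed only when blocked by run (adjusted p = 0.0753, blocked 0.0217), and in vehicle it was 0.12 (0.656). Slc7a4 and Slc7a9 did not pass in either.

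Of the Slc6a family 1 member fell in both treatments. Slc6a6, the taurine transporter, had 6179, 5713 and 6508 in wild type vehicle against 4540, 3145 and 2643, and 5440, 5138 and 5761 against 4109, 3515 and 2811 in RA. The groups did not overlap, and the gene fell by 0.87 (SE 0.181, adjusted p = 0.00964) in vehicle and by 0.66 (SE 0.181, adjusted p = 0.044) in RA. In vehicle the call was lost only without knockout vehicle replicate 2 (adjusted p = 0.0516). In RA it was lost in 8 of 12 such fits, with adjusted p values up to 0.181, and held without knockout vehicle replicate 1 or 3, knockout RA replicate 1 or wild type vehicle replicate 3.

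Slc6a8, the creatine transporter, had 3222, 3160 and 2657 in wild type vehicle against 2252, 2185 and 1339, and 2529, 2435 and 2677 against 2045, 1703 and 1133 in RA. The lower values again belonged to the cells labelled knockout, but the changes of -0.67 and -0.68 (SE 0.213) passed only when blocked by run (adjusted p = 0.093 and 0.0842, blocked 0.00381 and 0.00313). Without the vehicle replicate 3 labelled knockout, the blocked value in vehicle was 0.0553, and in RA the change passed without the block (0.0391). Slc6a9 (GlyT1), a glycine carrier, had changes of -0.15 and 0.26, and Slc6a15, a carrier of branched-chain amino acids and proline named here after its values were seen, had 0.63 and 0.50. Neither passed (adjusted p = 0.2 or higher).

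Slc36a4 (PAT4), a carrier of proline and tryptophan found on cell and organelle membranes, was lower in the cells labelled knockout. Its signal was 248, 298 and 225 in wild type vehicle against 63.1, 95.8 and 64.2, and 378, 447 and 374 in wild type RA against 220, 189 and 136. The mean in knockout vehicle (74.4) lay under the background level, so the gene was at least 2.66-fold lower in vehicle (change -1.61, SE 0.289, adjusted p = 0.00318). In RA it fell by 1.09 (SE 0.289, adjusted p = 0.0357), a call that was lost in 8 of 12 fits leaving out 1 array (all but those without knockout vehicle replicate 1, 2 or 3 or wild type vehicle replicate 3, adjusted p up to 0.178) and with quantile normalization (0.12). Slc36a1 (PAT1), the lysosomal and gut proton-coupled carrier, had 206, 163 and 231 against 290, 241 and 356 in vehicle, a change of 0.53 that did not pass (adjusted p = 0.451).

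Slc43a2 (LAT4), a carrier of large neutral amino acids, had 168, 134 and 213 in wild type vehicle against 397, 299 and 447. The groups did not overlap, and the gene rose by 1.09 (SE 0.259, adjusted p = 0.0219), with 1.17, 1.08 and 1.02 within the runs. The call was lost without wild type vehicle replicate 1 or 2 or knockout vehicle replicate 1 or 3 (adjusted p up to 0.101, changes of 1.08, 0.94, 1.05 and 0.97), and of 2 further probe sets 1 had a change of 0.52 that did not pass and 1 was below background. In RA the change was 0.58 (adjusted p = 0.288). Slc43a3, a purine nucleobase transporter, had -0.86 (adjusted p = 0.201) and -0.56 (0.508).

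The other members above background passed in neither treatment, without or with the block: Slc6a2, Slc6a17, Slc6a18, Slc7a4, Slc7a9, Slc36a3, Slc38a6, Slc38a7, Slc38a9, Slc38a10 and Slc43a1. Slc38a9, the lysosomal arginine sensor of mTORC1, had group means of 272, 310, 354 and 319 in wild type vehicle, wild type RA, knockout vehicle and knockout RA. Slc43a1 (LAT3), another carrier of large neutral amino acids, had 125, 130, 164 and 170. Slc7a4 had 239, 365, 225 and 273, and Slc7a9, the light chain that pairs with Slc3a1, had 144, 89.8, 101 and 56.6, near the background level.

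Genotype differences in vehicle and in RA were also set side by side. Of the 9 members that passed in vehicle and the 9 in RA, 6 passed in both (10% of members, against 4.24% of all genes in both). These were Slc38a4 and Slc1a1 upwards and Slc1a4, Slc6a6, Slc7a6 and Slc36a4 downwards. Of all genes 1168 passed in vehicle, 1373 in RA and 771 in both. Of those that passed in either treatment, 6 of 12 members and 771 of 1770 genes passed in both. Passing in both is therefore not read as a trait of the members. With the run as a block 11 members passed in both. That fit called more of all genes (13.5% in vehicle and 14.5% in RA), and their share in both was not counted. The groups are different arrays of the same lines and runs. Across the 34 members above background, Pearson's r between the differences was 0.935 (0.840 without Slc38a4) and Spearman's rho 0.856, against 0.764 and 0.686 across the 10880 genes above background. This is a description across genes, which are not independent. The median difference of the 34 members was -0.27 in vehicle and -0.26 in RA, against 0.00 and -0.03 for genes above background, and that of all 60 members was 0.04 and 0.06, against 0.13 and -0.05 for all genes. The 34 were chosen by signal, and some, Slc38a4 among them, passed that level through the higher groups only.

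**Figure D3:**
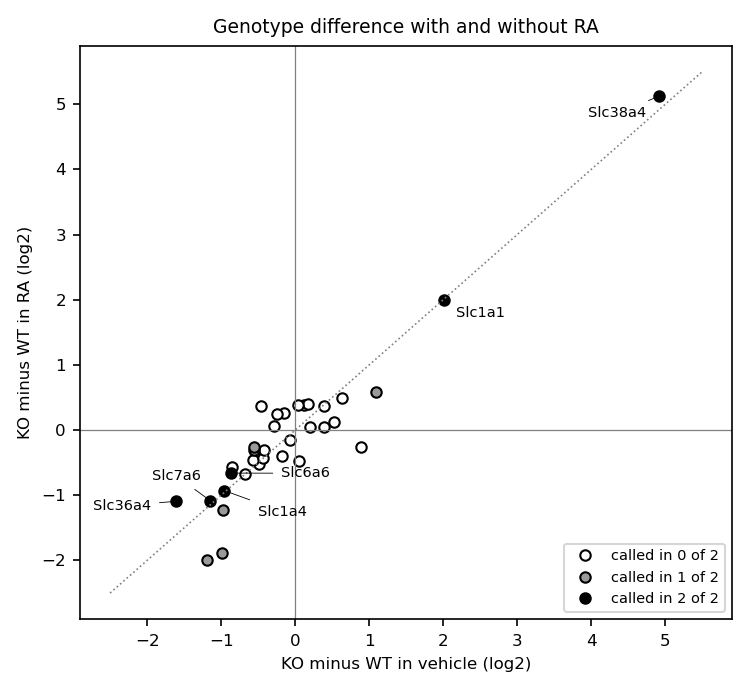
Difference between cells labelled knockout and wild type on the log2 scale, in vehicle (horizontal) and in RA (vertical), for the 34 members above background, with shading for the number of comparisons in which a member passed and a dotted line of equality. Slc38a4 lies at 4.91 and 5.12 and Slc1a1 at 2.01 and 1.99, and Slc36a4, Slc7a6, Slc1a4 and Slc6a6 lie at the lower left.

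Wild-type cells with and without RA show which transporters changed within 24 h of treatment. By limma 1 of the 60 members passed, downwards, where 0.824% of all genes passed and 0.335% passed downwards. With the run as a block 3 passed (all genes 3.35%), and 8 had an unadjusted p under 0.05 (8.98% of all genes). The signals of 13 members did not overlap between the groups (17.9% of all genes).

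The member was Slc7a7, with signals of 4744, 4564 and 4066 in vehicle that stood against 2281, 1940 and 1950 in RA. Each RA array was well under each vehicle array, and the gene fell by 1.11 (SE 0.153, adjusted p = 0.00136, within runs -1.05, -1.23 and -1.05). The call held in all 12 fits that left out 1 array, and was lost in a fit without an intensity trend (adjusted p = 0.0976). A second probe set fell by 1.04 (adjusted p = 0.0013). In human, loss of SLC7A7 causes lysinuric protein intolerance, a disorder of cationic amino acid export.

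RefSeq's table holds 5 promoter windows of Slc7a7, for different annotated starts, and that of the most upstream start (chr14:54417895-54418194, minus strand, GRCm38.p6) is shown as one of the member RA lowered. Capitals mark matches to TGATGNAAN, the core letters of the amino acid response element bound by ATF4 with C/EBP factors, searched on both strands.
Slc7a7: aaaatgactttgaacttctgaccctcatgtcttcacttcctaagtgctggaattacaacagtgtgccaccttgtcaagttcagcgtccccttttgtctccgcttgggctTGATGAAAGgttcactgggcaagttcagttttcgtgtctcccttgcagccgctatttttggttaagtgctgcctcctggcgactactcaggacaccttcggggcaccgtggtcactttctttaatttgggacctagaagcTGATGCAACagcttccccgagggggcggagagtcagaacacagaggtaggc
This window holds 2 matches. Of the other 4, some of which overlap it, 1 holds 1 match, which is the same TGATGCAAC site as here, and 3 hold 0. The 2 shown are TGATGAAAG with its first base 141 bases before the annotated start and TGATGCAAC with its first base 1 base before it. Such a match is held by 3.954% of 32851 windows of all genes and by 5 of 64 windows of members (7.812%). These belong to Slc1a4, Slc6a21, Slc7a7 and Slc7a11, and those of Slc7a7 overlap and share a site, which is counted in each. AGGTCA, the core motif of retinoid receptor sites, is in 9 member windows on either strand (14.062%, against 16.255% of all). Windows were given for 43 of the 60 members. A match describes these letters and says nothing of binding.

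Among the other members in wild type, Slc7a3 had 13472, 13594 and 13251 in vehicle and 10067, 9888 and 9881 in RA. The groups were narrow and separate, and the change of -0.43 passed with the run as a block only (adjusted p = 0.173, blocked 0.0308). Slc1a5 was higher with RA on each run (1.26, 0.84 and 1.07), a change of 1.06 that also passed with the block only (adjusted p = 0.212, blocked 0.000137). Slc3a2 had 14567, 13649 and 14424 in RA, all under the vehicle arrays, but -0.32 did not pass (adjusted p = 0.622, blocked 0.239). Nor did Slc7a5 (-0.36, adjusted p = 0.653), Slc7a1 (-0.24, 0.837), Slc6a15 (-0.62, 0.602), Slc36a4 (0.61, 0.752), Slc43a3 (0.79, 0.677) or Slc7a2 (0.69, 0.824). The stem cell markers moved with this comparison, with 5 of 8 lower (median -0.87) and a sum of 80784 to 93001 in RA against 115479 to 117551. The sum of 12 endoderm markers overlapped between these groups, with 0 of 12 called by limma without or with the block. The part of the stem cell markers in the Slc7a7 result was not tested.

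**Figure D4:**
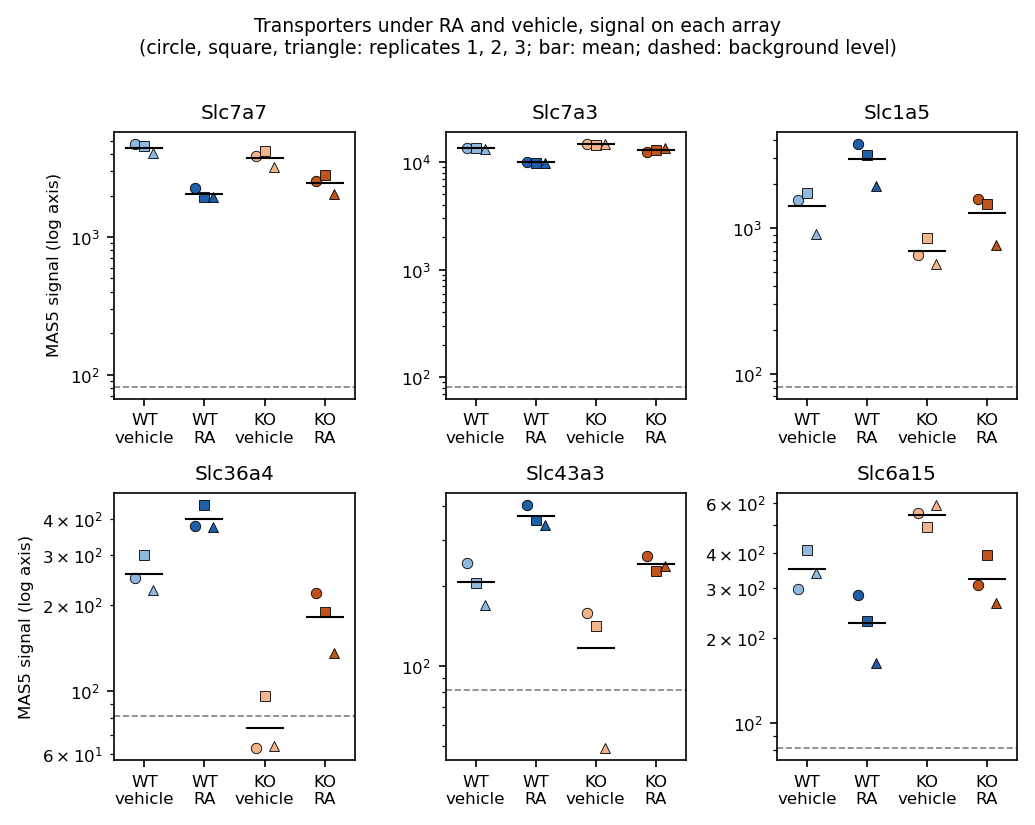
MAS5 signal on each array (log axis) for 6 members, with circles, squares and triangles for replicates 1, 2 and 3, bars for group means and a dashed line for the background level of 81.6. Slc7a7 falls from between 4066 and 4744 to between 1940 and 2281 in wild type, and Slc36a4 and Slc43a3 are higher with RA in both lines without passing the test.

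In the cells labelled knockout 0 members passed for RA against vehicle by limma (all genes 0.148%), 7 had an unadjusted p under 0.05 (6.49% of all genes), and 2 passed with the run as a block (all genes 0.495%). The signals of 10 members did not overlap (10.9% of all genes). The smallest p belonged to Slc7a7, with 3849, 4217 and 3216 in vehicle and 2529, 2815 and 2056 in RA. All RA arrays were lower, and the change of -0.61 (SE 0.153, adjusted p = 0.355, blocked 0.0137) was -0.60, -0.58 and -0.64 within the runs. Its second probe set gave -0.28 (adjusted p = 0.85). Slc1a5 changed by 0.81 (adjusted p = 0.739, blocked 0.00893), with 1.26, 0.76 and 0.42 within the runs, and its vehicle and RA arrays overlapped.

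Slc36a4 had 63.1, 95.8 and 64.2 in vehicle and 220, 189 and 136 in RA, at least 1.90-fold higher over the background level but not past the threshold (change 1.12, adjusted p = 0.388, blocked 0.102). Slc43a3 had 159, 142 and 49.3 against 260, 229 and 239 (1.09, adjusted p = 0.599), with its lowest value on the vehicle replicate 3 array that stands apart. Slc6a15 had 550, 493 and 589 against 307, 391 and 266, a change of -0.74 that did not pass (adjusted p = 0.651).

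Whether RA acted differently in the lines was tested as the difference of the RA changes. Of 60 members 0 passed by limma (all genes 0%), 0 with the run as a block (all genes 0.0879%), and 1, Slc7a7, had an unadjusted p under 0.05 (4.75% of all genes). The smallest p values belonged to Slc7a7 (0.50, SE 0.216), Slc1a3 (-0.90) and Slc3a2 (0.36), each with an adjusted p of 0.978 and blocked 0.563, 0.693 and 0.702. The second probe set of Slc7a7 gave 0.76, with 0.76, 0.80 and 0.72 within the runs (adjusted p = 0.922, blocked 0.147). That Slc7a7 passed in wild type and not in the cells labelled knockout is therefore not shown to be a difference between the lines. Of the 8 stem cell markers 3 passed this test with the run as a block, each with a positive difference.

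Genes around amino acid supply were read from 6 lists with 110 measured genes. Between cells labelled knockout and wild type, the list of the amino acid response, in which GCN2 and ATF4 induce genes under amino acid shortage, had 4 of 18 members lower and 0 higher in vehicle, where 4.01% of all genes were lower and 2.41% higher. In RA 4 were lower and 1 higher, where 4.28% of all genes were lower and 3.26% higher. With the run as a block 1 was higher and 4 lower in vehicle, and 3 were higher and 4 lower in RA. Of all genes 5.78% were higher and 7.77% lower with the block in vehicle, and 6.76% and 7.78% in RA. Above background lie 17 of the 18, and most genes of the lists below. Of genes above background 3.76% were higher and 6.64% lower in vehicle, and 5.38% and 6.76% in RA. With the block these shares were 9.2% and 12.8% in vehicle, and 11.2% and 12.4% in RA. The median of the response list was -0.14 in vehicle and -0.19 in RA. It was 0.00 and -0.03 for genes above background, and 0.13 and -0.05 for all genes. Atf5, a transcription factor of this response, had a mean signal of 3830 ± 266 (SD, n = 3) in wild type vehicle and 1408 ± 519 in knockout vehicle and fell by 1.51 (SE 0.239, adjusted p = 0.00111) in vehicle and by 1.54 in RA (0.000679). Chac1, which degrades glutathione, fell from 6888 ± 967 to 3674 ± 431 in vehicle (-0.90, SE 0.139, adjusted p = 0.000904). Atf4 itself had 11178 ± 1776 and 11642 ± 852 (0.07, adjusted p = 0.862), and Asns, the asparagine synthetase that ATF4 induces, had -0.15 (0.629). Stc2, a secreted glycoprotein of the response, was higher in RA (1.67, adjusted p = 3.53e-05), where RA had lowered it in wild type from 1232 ± 148 to 595 ± 25.1 (-1.02, adjusted p = 0.0158).

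Of 17 measured genes of non-essential amino acid synthesis 4 were lower in vehicle (4.01% of all genes), and 2 were lower (4.28%) and 1 higher (3.26%) in RA. With the run as a block 6 were lower (all genes 7.77%) and 1 higher (5.78%) in vehicle, and 3 lower (7.78%) and 2 higher (6.76%) in RA. Glul, glutamine synthetase, went from 8658 ± 1257 to 4580 ± 296 in vehicle (-0.91, adjusted p = 0.00879) and had -1.07 in RA (0.00187), and Gpt2, which interconverts alanine and pyruvate, had -0.80 (0.016) and -0.86 (0.00808). Mthfd2, a mitochondrial folate enzyme, was the 1 higher in RA (0.53, adjusted p = 0.0479). Of 20 other amino acid transporters 2 were lower in both treatments (blocked, 3 lower and 1 higher in vehicle and 3 lower in RA): Mfsd12, a lysosomal cysteine importer (-1.83, adjusted p = 0.00196, and -1.45, 0.0091), and Slc25a13, a mitochondrial aspartate and glutamate carrier (-0.59, 0.0385, and -0.93, 0.0014).

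The next counts stand beside shares of all genes of 2.41% higher and 4.01% lower in vehicle, and 3.26% and 4.28% in RA. Blocked, these shares were 5.78% and 7.77% in vehicle, and 6.76% and 7.78% in RA. In glutathione synthesis and use 1 of 11 was higher in both treatments (blocked, 1 in vehicle and 2 in RA), Gclm, the modifier subunit of glutamate-cysteine ligase (1.00, adjusted p = 0.00353, and 1.04, 0.00195). In mTORC1 amino acid sensing, where Castor1 senses arginine and Sesn1 belongs to the leucine-sensing sestrins, 1 of 25 was higher and 1 lower in each treatment (blocked, 3 and 3 in vehicle and 2 and 2 in RA). Castor1 had 0.96 (adjusted p = 0.0238) and 0.85 (0.0443), and Sesn1 -0.62 (0.047) and -0.90 (0.00354). Of 19 cytosolic tRNA synthetases 1 was lower in vehicle, Wars (-0.60, adjusted p = 0.0292). In RA 0 passed by limma, 1 had an unadjusted p under 0.05 (19.96% of all genes), and 1, lower, passed with the block. For RA against vehicle in wild type 2 of the 110 genes passed, Stc2 downwards and Sesn1 upwards (0.90, adjusted p = 0.0194), where 0.824% of all genes passed. With the block 5 passed (3.35% of all genes), 3 lower and 2 higher, and 16 had an unadjusted p under 0.05 (8.98% of all genes). In the cells labelled knockout 0 passed by limma (all genes 0.148%) and 1 with the run as a block (0.495%). There 7 had an unadjusted p under 0.05 (6.49% of all genes). For the difference 0 passed (all genes 0%), 4 had an unadjusted p under 0.05 (4.75%) and 0 passed with the block (0.0879%). The endoderm markers differed between the lines here as above, and their part was not tested.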

How the data were processed

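RNA of 12 samples of F9 cells was measured on Affymetrix Mouse430_2 arrays, and the labels do not say whether replicates are separate cultures. The values deposited by the authors are MAS5 intensity signals, not log-transformed (MAS5 per the submitters' processing notes, with version and masking not given in the sources used here), and the values show a mean of 500.003 on each array after trimming 2% at both ends, with no further normalization between arrays seen. The deposited experiment files hold hybridization and scan settings as text, of a kind other than expression. They gave the chip lots, and the 3 fluidics runs from shared hybridization times. Replicates were numbered in accession order, and the numbers coincide with the runs, so a run pairs 1 array of each group. Sample titles open with a number in runs 1 and 2 and with a letter in run 3. A block for this title code is thus a coarser form of the block for the run and not a separate check. Arrays have no read depth, and their number limits the precision.

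From these values, 64 control probe sets were left out of 45101, and log2(signal + 16) was fitted in R 4.3.3 by the limma package, version 3.58.1 (lmFit, then eBayes with trend, 4 groups, 8 residual degrees of freedom, 5 contrasts, 6 residual degrees of freedom with the run as a block). Benjamini-Hochberg adjustment was over all probe sets tested. Of these, 34945 had 1 gene symbol in the platform annotation, 932 several and 9160 none. The background level was the mean over arrays of each array's 95th percentile over 86 receptor probe sets. Promoter windows are RefSeq's for GRCm38.p6. Alternatives were pseudocounts of 1 and 64, quantile normalization, median centring, a filter on dim probe sets, no intensity trend, array weights, other sets of arrays or probe sets, a stricter threshold and blocks for the run or the type of title code. The code was tested on simulated data for RA against vehicle in wild type. Of 100 changes of 1 on the log2 scale 26 were recovered, and of 100 changes of 2, 68, with 9 false calls. A change that did not pass is therefore not shown to be absent.

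The members, lists and tests were chosen with earlier results of these data known. Named by rule were Slc38a4, members that passed in any of the 5 contrasts without or with the run as a block, the 2 with the highest mean signal in each family, Slc3a1 and Slc3a2, the 3 smallest p values where 0 passed, and up to 3 listed genes per contrast with the smallest adjusted p. Other members are named to account for all, and Atf4, Asns and Slc6a15 after their values were seen.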

Additional observations from a re-analysis of the deposited data

Results flagged for a closer look

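For 4 members the groups moved in opposite directions in every run, a difference that did not pass when tested as the difference of the RA changes (adjusted p = 0.978 for each). How many of all genes show such a pattern was not counted, so the number is not read as a trait of the members. Slc3a2, the shared heavy chain, was lower in vehicle in the cells labelled knockout (-0.57 to -0.04 over the runs) and level or higher in RA (0.00 to 0.12), a difference of 0.36 (blocked adjusted p = 0.702). Slc7a7, the y+LAT1 light chain, was lower in vehicle (-0.34 to -0.11) and higher in RA (0.08 to 0.53), a difference of 0.50 (blocked 0.563). Slc43a2 (LAT4) was higher with RA in wild type (0.01 to 0.45) and lower in the cells labelled knockout (-0.59 to -0.07), a difference of -0.50 (blocked 0.774). Slc6a18, a transporter of the Slc6a family near the background level, had a difference of -1.14 (blocked 0.755). In the cells labelled knockout it was higher in vehicle (0.09 to 1.82) and had -0.38 to -0.04 in RA. Its means in RA, 81.9 in wild type and 65.8 in the cells labelled knockout, lay at or under the background level. No direction is therefore read for it in RA. The highest value of Slc6a18, 378, was on the vehicle replicate 3 array whose dim signals are raised.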

How the results depend on the processing

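Over 24 alternatives, 0 of 456 repeats of the 19 calls of single members changed direction and 55 no longer passed. Many alternatives keep the estimate by design. These are the blocks on all arrays, the fit without a trend, the choices of probe sets and the fits without arrays of other groups. A change of direction was not possible in those, and only the pass could be lost. Of the 19 calls 10 passed under each alternative: Slc38a4, Slc1a1 and Slc7a6 in both treatments, Slc1a4 and Slc36a4 in vehicle, and Slc1a3 and Slc7a2 in RA. The number of members called for RA in wild type (1) was 2 with probe sets above background alone, 0 without an intensity trend, and 3 with array weights, with the fluidics run as a block, with the title code as a block and with the run block without the vehicle replicate 3 labelled knockout. For RA in the cells labelled knockout (0) it was 1 with array weights and 2 with each of these blocks. For the genotype difference in vehicle (9) it was 14 with the run or the title code as a block, and in RA (9) median centring left 5. Centring moved the median change of genes above background by over 0.1, from 0.00 to -0.22 for the genotype difference in vehicle, from -0.03 to 0.10 for it in RA, from 0.03 to 0.27 for RA in the cells labelled knockout and from 0.01 to 0.35 for the difference of the RA changes, so changes under this setting are relative to those values. Leaving out 1 array gave 6 to 11 members for the genotype difference in vehicle, 6 to 10 in RA, 1 for RA in wild type and 0 for RA in the cells labelled knockout and for the difference. Centring ended the calls of Slc7a1 (adjusted p = 0.183), Slc7a5 (0.203) and Slc43a2 (0.177) in vehicle and of Slc1a4 (0.143), Slc1a5 (0.0808), Slc6a6 (0.489) and Slc36a4 (0.179) in RA. A fit without the intensity trend ended those of Slc7a7 for RA in wild type (0.0976), of Slc6a6 (0.111), Slc7a1 (0.181) and Slc7a5 (0.227) in vehicle and of Slc1a5 (0.147) and Slc6a6 (0.237) in RA. The cause of these shifts was not tested. The labels hold no replicate numbers, so the replicate block is the run, which keeps the estimates and so cannot change a direction. Signals near background limit what can be read for the 26 dim members.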
